A study of Mus musculus with 7 samples.

Results

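The CD28 family receptors are 5 immunoglobulin superfamily genes of T cells, Cd28, Ctla4, Icos, Pdcd1 and Btla, described here in regulatory T (Treg) cells with and without an intact allele of Pggt1b. The genes were taken by symbol from the deposited matrix, and each had 1 probe set. They are 5 of 21902 genes with a symbol, and all 5 were among the 13083 that lay above the array background and were tested. Pggt1b is the gene for a subunit of the protein prenylating enzyme GGTase-I, which attaches an isoprenoid lipid to small GTPases and other proteins. The 3 KO samples were CD4+ YFP+ cells from the spleen and pLN of Foxp3CrePggt1bfl/fl chimeras, and the 4 Het samples were the same sorted population from Foxp3CrePggt1bfl/wt chimeras. Both groups carry the Cre, which is driven with Foxp3 and so acts in cells that express it, and both carry at least 1 floxed allele, so no group has an untouched Pggt1b locus. Ages, the number of animals behind each sample and the host cells that remained in the chimeras were not stated. Each sample was hybridised to 1 array. The replicate numbers used below were assigned in sample order within each genotype, since the labels carry none. Equal numbers do not mark matched KO and Het arrays.

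CD28 gives the costimulatory signal that a T cell needs beside its antigen receptor, by binding CD80 and CD86 on antigen-presenting cells. CTLA-4 binds the same ligands more tightly and, on Treg cells, removes them from the surface of the presenting cell. ICOS is a costimulator that binds ICOSL and is known for maintaining effector Treg cells, while PD-1 (Pdcd1) and BTLA are inhibitory receptors for PD-L1 and PD-L2 and for HVEM.

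Of the 5 genes, 3 fell with the loss of both alleles and 0 rose, with limma and a Benjamini-Hochberg adjusted p under 0.05 over all tested genes as the call. The inhibitory receptor Pdcd1 fell 3.27-fold, the costimulator Icos 2.27-fold and the inhibitory receptor Ctla4 1.74-fold. Cd28 was 1.49-fold lower and missed the threshold, and Btla differed by 1.12-fold with overlapping groups. Over all tested genes 3.24% fell and 2.55% rose, and the median change was -0.02 on the log2 scale, against a median of -0.80 over the 5 receptors. The receptors were chosen with earlier results of these data known, so this comparison describes them and is no test. Values are the deposited log2 values, changes are KO minus Het, and a fold is 2 to the power of the change.

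**Figure D1:**
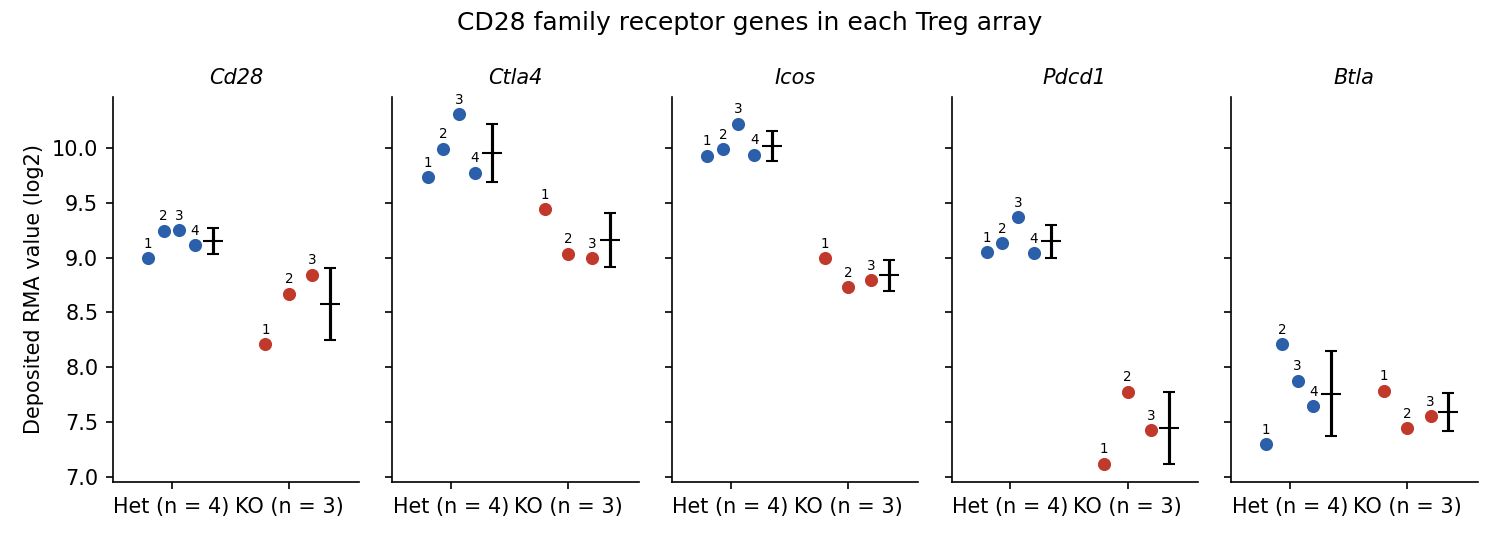
The points are the deposited log2 values of each receptor gene in the 4 Het and 3 KO arrays, numbered by replicate, and the bars are mean ± SD. All KO arrays lie below all Het arrays for Cd28, Ctla4, Icos and Pdcd1, while the Btla values overlap; heights are not comparable between genes, since each has its own probe set.

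The cells were checked against their labels first. Foxp3, the factor that defines Treg cells, lay between 11.01 and 11.36 on all 7 arrays and differed by 0.06 ± 0.12 (SE, adjusted p = 0.836, limma). Cd3e, a CD3 subunit of the T cell receptor complex, differed by -0.09 ± 0.10. Its partner Cd3g differed by -0.18 ± 0.11 with all KO arrays below all Het arrays (adjusted p = 0.409, limma). The coreceptor Cd4 differed by 0.02 ± 0.11. Pggt1b itself was 6.59, 6.62 and 6.59 in KO and 7.09, 7.11, 6.71 and 6.97 in Het replicates 1 to 4, a difference of -0.37 ± 0.13 that did not pass (adjusted p = 0.126, limma). Where its probes lie against the deleted part was not stated, so this value checks no label. Of 20 tested myeloid markers 14 rose, and their mean per array was 8.22, 7.13 and 7.42 in KO replicates 1 to 3 against 5.95 to 6.44 in Het. Mrc1, C1qc and Cd14 of that list were below the array background on every Het array, so they were tested only through the KO arrays. With all 7 arrays required to lie above the background, 12 myeloid markers were tested and 6 rose. Of 9 tested dendritic cell markers 5 rose, with array means of 7.79 to 8.05 (KO) against 7.02 to 7.17 (Het), while the dendritic markers Flt3, Xcr1 and Clec9a were too dim to be tested. Of 6 tested B cell markers 0 passed with limma (0 at an unadjusted p under 0.05, where 19.9% of all tested genes lay, and 0 with array weights or with the trended, robust fit), and the markers Ms4a1, Pax5 and Cr2 were too dim to be tested. Of 5 tested CD8 T and NK cell markers 2 rose and 1 fell, with array means of 7.54 to 7.66 (KO) against 7.25 to 7.60 (Het), and Ncr1, Klrb1c, Klrk1, Gzma and Klra8 were too dim. Of 8 tested T cell and Treg markers 1 fell, the Treg factor Ikzf2 (-1.22, adjusted p = 0.0017, limma), with array means of 9.50 to 9.75 (KO) against 9.79 to 9.85 (Het). The part of this signal from other cells in the receptor changes was not tested beyond the values given beside them.

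Among the costimulatory receptors, Icos (chr1:60960773-61000322, GRCm38.p6) read 9.00, 8.73 and 8.80 in KO replicates 1 to 3 and 9.93, 9.99, 10.22 and 9.94 in Het replicates 1 to 4. Every KO array was lower than every Het array, with a gap of 0.93 between the highest KO and the lowest Het value. The means were 8.84 ± 0.14 in KO and 10.02 ± 0.14 in Het (SD, n = 3 and 4), and the change was -1.18 ± 0.12 (SE, 95% interval -1.46 to -0.91, adjusted p = 0.00051, limma). It ranked 89 of 13083 genes by the size of the fall and 44 by p. In folds the interval ran from 1.87 to 2.75. Icos was the receptor with the smallest spread in KO, and its call was kept without any single array, at changes of -1.26 to -1.11.

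Cd28 (chr1:60746388-60773359) read 8.21, 8.67 and 8.85 in KO and 9.00, 9.25, 9.25 and 9.12 in Het. The KO arrays were again all below the Het arrays, but the gap was 0.15, and KO replicate 1 was the lowest array. The means were 8.58 ± 0.33 and 9.15 ± 0.12 (SD, n = 3 and 4), the change was -0.58 ± 0.16 (SE, 95% interval -0.92 to -0.23), and the adjusted p of 0.0608 (limma) missed the threshold. By exact permutation of the genotype labels (two-sided, 35 arrangements) p was 0.0286 for Cd28, and likewise for Ctla4, Icos and Pdcd1, which is the lowest value reachable with 3 and 4 arrays. The result turned on single arrays and on the fit. Without KO replicate 3 the change was -0.71 and passed (adjusted p = 0.0483, limma), with array weights it was -0.53 and passed (adjusted p = 0.0363), and with a trended, robust prior it passed at -0.58 (adjusted p = 0.0228). Without KO replicate 1, where the myeloid markers were highest, it was -0.39 (adjusted p = 0.149, limma).

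The inhibitory receptors differed more widely among themselves. Pdcd1 (chr1:94038305-94052553) read 7.12, 7.78 and 7.43 in KO and 9.05, 9.13, 9.37 and 9.04 in Het. The highest KO array was 1.26 below the lowest Het array, the widest gap of the 5 genes. The means were 7.44 ± 0.33 and 9.15 ± 0.15 (SD, n = 3 and 4), with a change of -1.71 ± 0.16 (SE, 95% interval -2.07 to -1.35, adjusted p = 0.000333, limma). This was rank 20 of 13083 by the size of the fall and rank 25 by p. The KO arrays stood 1.64 to 2.15 above the array background and the Het arrays 3.27 to 3.74, so the gene was measured on both sides, and array background compresses folds of such dimmer values. Leaving out any single array kept the call, at changes of -1.88 to -1.55.

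Ctla4 (chr1:60909025-60915832) read 9.44, 9.04 and 9.00 in KO and 9.74, 9.99, 10.31 and 9.78 in Het. All KO arrays were below all Het arrays, by a gap of 0.29, and KO replicate 1 was the highest of its group here. The means were 9.16 ± 0.25 and 9.96 ± 0.26 (SD, n = 3 and 4), and the change was -0.80 ± 0.17 (SE, 95% interval -1.17 to -0.42, adjusted p = 0.0212, limma), or 1.34-fold to 2.25-fold. The call did not survive the loss of KO replicate 2 (-0.74, adjusted p = 0.0842, limma), KO replicate 3 (-0.72, adjusted p = 0.0893), Het replicate 2 (-0.78, adjusted p = 0.0565) or Het replicate 3 (-0.68, adjusted p = 0.0514). Without KO replicate 1 the fall was -0.94 (adjusted p = 0.0185, limma).

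Btla (chr16:45223705-45252895) read 7.79, 7.44 and 7.55 in KO and 7.29, 8.21, 7.88 and 7.65 in Het. All 3 KO arrays lay inside the Het range. The means were 7.59 ± 0.18 and 7.76 ± 0.39 (SD, n = 3 and 4), and the change was -0.17 ± 0.20 (SE, 95% interval -0.60 to 0.27, adjusted p = 0.709, limma). The interval reaches a fall of 1.52-fold, so a missed threshold does not show that Btla was unchanged. The KO arrays stood 1.81 to 2.31 above the array background and the Het arrays 1.66 to 2.64. Btla was thus dim in both groups, where background compresses folds. In bulk samples, fewer cells that carry a receptor and less RNA per cell cannot be told apart, here and for the other receptors.

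**Figure D2:**
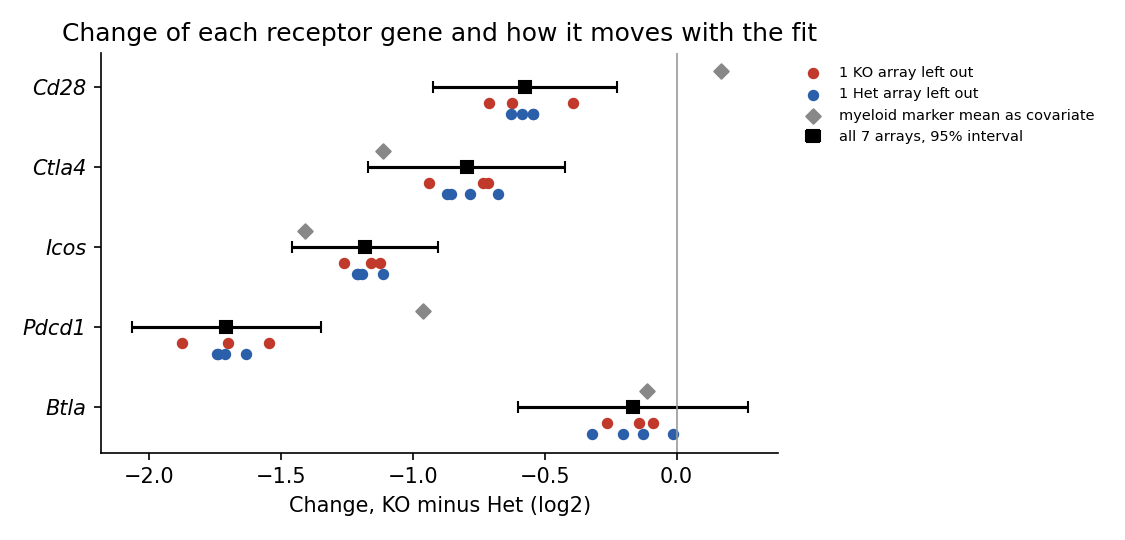
Each square is the change of a receptor gene, KO minus Het on the log2 scale, with its 95% interval from limma; red and blue points leave out 1 KO or 1 Het array, and grey diamonds use the myeloid marker mean as a covariate. Icos and Pdcd1 stay below -0.9 in each of these fits, and Cd28 moves to 0.17 with the covariate.

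In 4 of the 5 receptors the KO arrays all lay below the Het arrays, against 9.82% of all tested genes. Given how the receptors were chosen, this too is a description and no test. The arrays of a genotype did not rank alike in every receptor. Het replicate 3 was highest for Ctla4, Icos, Pdcd1 and, by under 0.01, Cd28, whereas Het replicate 2 was highest for Btla. Within KO, replicate 1 was lowest for Cd28 and Pdcd1 and highest for Ctla4, Icos and Btla. The mean of the 5 receptors was nevertheless nearly the same on the KO arrays, at 8.31, 8.33 and 8.32, and ranged from 9.00 to 9.41 on the Het arrays.

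Further fits were made because of the mixture of cells. With each array centred on Cd3e, Cd3g and Cd4, a setting added after the data were seen, the changes were -1.63 for Pdcd1, -1.10 for Icos, -0.72 for Ctla4 (adjusted p = 0.0418, limma), -0.49 for Cd28 and -0.08 for Btla, and the same 3 genes passed. That centring moves all genes of an array by the same amount, so it cannot remove signal that other cells add to single genes. With the myeloid marker mean of each array as a covariate, none of the 5 passed (0 at an adjusted p under 0.05). Icos was then -1.41 ± 0.30 (SE, adjusted p = 0.187, limma), Ctla4 -1.11 ± 0.41 (adjusted p = 0.373), Pdcd1 -0.96 ± 0.30 (adjusted p = 0.317) and Cd28 0.17 ± 0.29 (adjusted p = 0.865). The covariate shares 82.8% of its variance with genotype and raised the median SE over all genes from 0.14 to 0.32, so myeloid signal and genotype cannot be told apart in that fit.

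**Figure D3:**
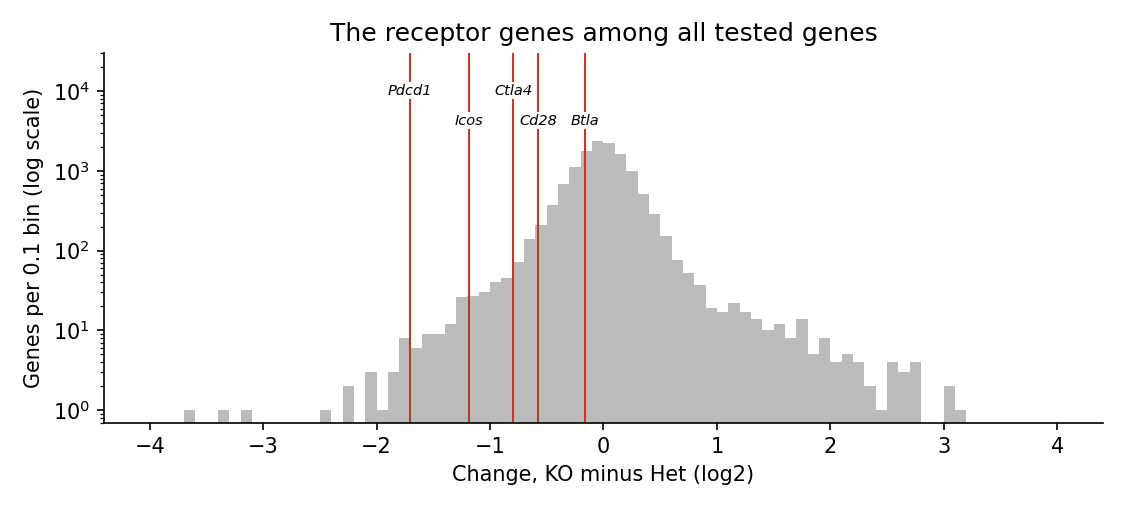
The grey bars count the 13083 tested genes by their change, KO minus Het in bins of 0.1 on the log2 scale, on a logarithmic count axis, and red lines mark the 5 receptors. Pdcd1 and Icos lie far into the lower tail at -1.71 and -1.18, and Btla lies at -0.17 within the bulk of the genes.

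Whether the receptors changed unequally was asked of the difference between each pair of them within an array, in 10 pairs. The change of Pdcd1 lay further below 0 than that of Cd28 (difference of the changes 1.13 ± 0.14, SE), Ctla4 (0.91 ± 0.27), Icos (0.53 ± 0.22) and Btla (the change of Pdcd1 minus that of Btla was -1.54 ± 0.32), and that of Icos further than that of Ctla4 (0.39 ± 0.10), each at an exact two-sided permutation p of 0.0286. After Benjamini-Hochberg adjustment over the 10 pairs these stood at 0.0571, so 0 pairs passed by this exact test, whose smallest p is 0.0286, and 5 were under 0.05 before adjustment. Icos against Btla (-1.02 ± 0.21), Ctla4 against Btla (-0.63 ± 0.19) and Cd28 against Icos (0.61 ± 0.23, overlapping arrays) had an exact permutation p of 0.0571. For Cd28 against Btla it was 0.257 (-0.41 ± 0.29). For Cd28 against Ctla4 the difference was 0.22 ± 0.30 (exact permutation p = 0.457). With the myeloid covariate, Ctla4 minus Pdcd1 turned to -0.15, Icos minus Pdcd1 to -0.45 and Cd28 minus Btla to 0.28, with no test.

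By position, Cd28, Ctla4 and Icos form a run on mouse chromosome 1 in which the RefSeq table of GRCm38.p6 lists no other protein-coding gene between them. Pdcd1 lies farther along the same chromosome, and Btla on chromosome 16. Their 3 changes in the run were -0.58, -0.80 and -1.18 in genomic order. The 250 bases before the start of Ctla4 and Pdcd1, which fell, are printed from RefSeq (GRCm38.p6) because T cell receptor signalling reaches such genes through NFAT. The windows are chr1:60908775-60909024 on the plus strand and chr1:94052554-94052803 on the minus strand, and capitals mark the NFAT core GGAAA or its reverse complement TTTCC.
Ctla4: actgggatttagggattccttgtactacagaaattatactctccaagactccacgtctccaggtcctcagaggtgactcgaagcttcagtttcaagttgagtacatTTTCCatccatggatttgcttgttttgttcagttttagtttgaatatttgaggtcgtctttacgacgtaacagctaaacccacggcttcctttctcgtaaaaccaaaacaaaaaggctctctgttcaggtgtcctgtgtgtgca
Pdcd1: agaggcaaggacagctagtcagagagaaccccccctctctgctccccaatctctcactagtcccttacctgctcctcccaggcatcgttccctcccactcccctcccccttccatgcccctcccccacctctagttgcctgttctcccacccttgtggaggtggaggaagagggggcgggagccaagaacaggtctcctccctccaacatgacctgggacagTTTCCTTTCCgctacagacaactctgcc
A script searched both strands for GGAAA, for the AP-1 site TGANTCA and for the forkhead site GTAAACA. Ctla4 held 1 NFAT core, beginning 144 bases before the start, and Pdcd1 held 2 adjoining cores that do not overlap, beginning 28 and 23 bases before it. The window of Btla, which did not pass, held 0 NFAT cores, and the windows of Icos, which fell, and Cd28 were not analysed here. None of the 3 windows searched held the AP-1 or forkhead letters. Of 32851 windows of that length 55.6% held the NFAT core, 6.75% the AP-1 and 3.17% the forkhead letters, so a core is common, and a match is a description of the letters and no more.

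The ligands were read on the same arrays. Of the 6 ligand genes, 1 fell and 5 missed the threshold, and the median change was -0.30. At an unadjusted p under 0.05 there were 2, and in 2 all KO arrays lay below all Het arrays. Over all tested genes 3.24% fell, 2.55% rose, 19.9% were at an unadjusted p under 0.05 and 9.82% had all KO arrays below. In a list of 6 these counts do not set the ligands apart. Pdcd1lg2, which encodes PD-L2, read 6.68, 7.03 and 7.26 in KO and 7.39, 7.76, 7.63 and 7.65 in Het, a fall of 1.54-fold (-0.62 ± 0.15, SE, adjusted p = 0.0424, limma). Its KO arrays were all below its Het arrays. The call was lost with no filter on dim genes (adjusted p = 0.062, limma), with centring on Cd3e, Cd3g and Cd4 (adjusted p = 0.052), and when any of these arrays was left out: KO replicate 1 (-0.46) or 2 (-0.64), Het replicate 2 (-0.57), 3 (-0.61) or 4 (-0.61). The change was 0.07 with the myeloid covariate. Cd274, which encodes PD-L1, read 8.46, 8.32 and 8.41 in KO and 8.77, 8.92, 8.71 and 8.83 in Het (-0.41 ± 0.11, adjusted p = 0.0584, limma), with all KO arrays below all Het arrays. It passed with array weights (adjusted p = 0.0338) and the trended, robust fit (adjusted p = 0.0361).

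Cd80, a ligand of CD28 and CTLA-4, read 8.25, 6.62 and 6.53 in KO and 7.71, 8.00, 7.96 and 7.45 in Het. KO replicate 1 was above every Het array and the other KO arrays were below every one, so over all arrays the change was -0.65 ± 0.35 (SE, adjusted p = 0.346, limma). Without KO replicate 1 it was -1.21 ± 0.17 (adjusted p = 0.00558, limma), and with array weights -1.02 (adjusted p = 0.0477). Without KO replicate 2 it was -0.39 (adjusted p = 0.661, limma) and without KO replicate 3 -0.35 (adjusted p = 0.711). With the myeloid covariate it was -2.54 and did not pass (adjusted p = 0.227, limma). Cd86, the other ligand of both, read 8.56, 7.05 and 7.58 in KO and 7.93, 8.21, 8.14 and 7.40 in Het (-0.19 ± 0.31, adjusted p = 0.802), and again KO replicate 1 was the highest array. That array also had the highest myeloid marker mean, at 8.22, and myeloid cells express both ligands; the part of this in the values was not tested. Icosl (-0.09 ± 0.14, adjusted p = 0.781) and Tnfrsf14, which encodes the BTLA ligand HVEM (-0.04 ± 0.12, adjusted p = 0.911, limma), did not pass.

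**Figure D4:**
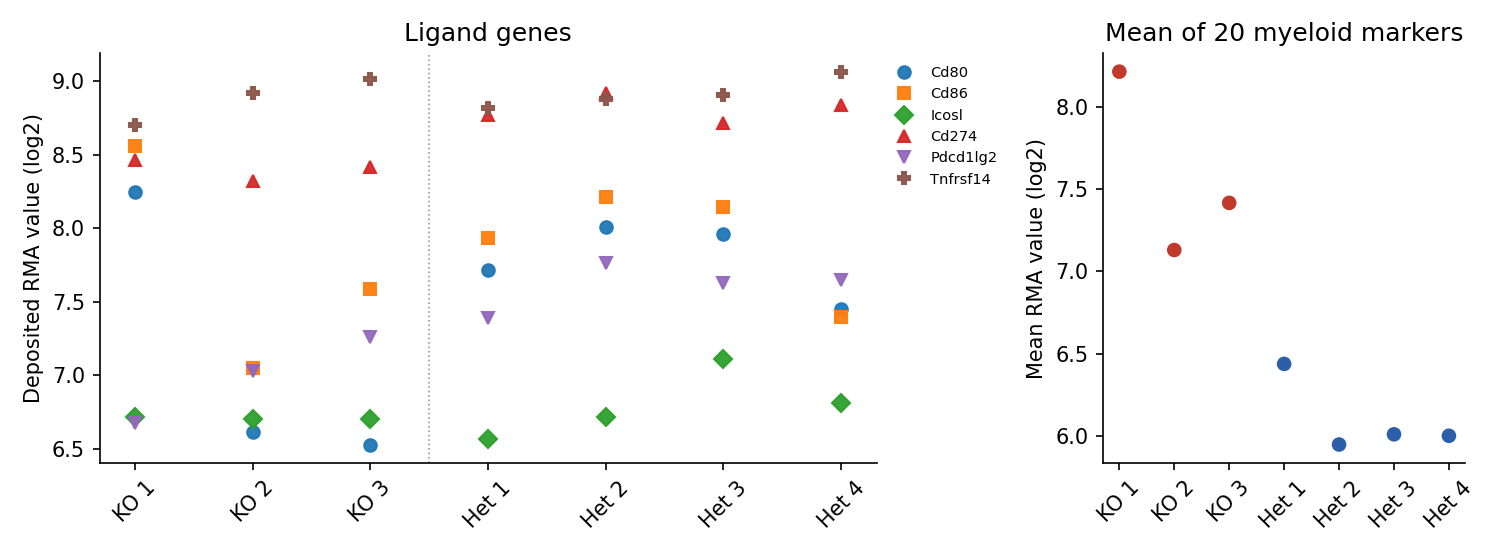
The left panel gives the deposited log2 value of the 6 ligand genes on each array, and the right panel the mean of the 20 tested myeloid markers. Cd80 and Cd86 are highest on KO replicate 1, where the myeloid mean is 8.22, and Pdcd1lg2 is lower on every KO array than on any Het array.

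Signalling genes downstream of the receptors were read next. Of 19 genes of CD28 and ICOS signalling 0 passed with limma, with 2 at an unadjusted p under 0.05, 0 with the trended, robust fit and 1 with array weights. Over all tested genes 3.24% fell, 2.55% rose and 19.9% were at an unadjusted p under 0.05. Array weights called 547 rises and 697 falls among 13083 genes. In lists this short, 0 calls lie near those shares and do not set the signalling genes apart. The kinase Lck, which starts antigen receptor signalling, differed by -0.29 ± 0.12 (SE, adjusted p = 0.191, limma). The median change of the list was 0.05. Of 10 phosphatases and other genes of inhibitory receptor signalling 0 passed with limma, 1 at an unadjusted p under 0.05, and 0 with either other fit, at a median of 0.06. The smallest p were those of the phosphatase 2A subunit Ppp2r5a (0.30 ± 0.10, adjusted p = 0.131) and the lipid phosphatase Inpp5d (0.17 ± 0.12, adjusted p = 0.465).

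Of 9 tested genes of the CTLA-4 trafficking list 0 passed with limma and 2 were at an unadjusted p under 0.05. The tenth, Pld1, was too dim. Over all tested genes 3.24% fell, 2.55% rose and 19.9% were at an unadjusted p under 0.05, so these counts lie near the shares over all genes. Lrba, which protects CTLA-4 from lysosomal breakdown, read 9.02, 9.08 and 9.19 in KO and 9.31, 9.70, 9.57 and 9.74 in Het (-0.49 ± 0.13, SE, adjusted p = 0.0593, limma). The adaptor Lax1 read 9.44, 9.57 and 9.94 in KO and 10.08, 10.16, 10.18 and 10.57 in Het (-0.60 ± 0.16, adjusted p = 0.0581, limma). Both genes had all KO arrays below all Het arrays, as had 9.82% of all tested genes. Both passed with the trended, robust fit (adjusted p = 0.0188 and 0.0129) and with array weights (adjusted p = 0.0284 and 0.05, the latter just under the threshold).

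Among 15 transcriptional and RNA-binding regulators of these receptor genes, 2 fell and 13 missed the threshold, and the median change was 0.00. The AP-1 family factor Batf read 8.77, 9.16 and 9.10 in KO and 10.14, 10.01, 10.14 and 10.07 in Het, a fall of 2.12-fold (-1.08 ± 0.13, SE, adjusted p = 0.000772, limma). The repressor Prdm1 was below the array background on all KO arrays, with means of 5.04 in KO and 6.71 in Het, and fell at least 2.15-fold (adjusted p = 0.00051, limma). Prdm1 was thus tested only through Het arrays, and it also passed with no filter on dim genes (adjusted p = 0.000661, limma). With all 7 arrays required to lie above the background, 13 regulators were tested and 1 fell. Tbx21 (-0.61 ± 0.19, adjusted p = 0.0909) and Foxo1 (0.40 ± 0.12, adjusted p = 0.0922, limma) did not pass, though Foxo1 did with the trended, robust fit and both with array weights. Of the 15 genes 10 were at an unadjusted p under 0.05, and in 5 the KO arrays lay below, in another 5 above, all Het arrays. Over all tested genes 19.9% were at an unadjusted p under 0.05, 9.82% had all KO arrays below and 9.68% all KO arrays above the Het arrays. The list was chosen with earlier results of these data known, so these shares give no test of it.

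The list of genes that CD28 costimulation is known to induce gave 2 falls, 1 rise and 8 that did not pass among 11 tested. Their median change was -0.16, and 5 were at an unadjusted p under 0.05. Over all tested genes 3.24% fell, 2.55% rose and 19.9% were at an unadjusted p under 0.05. This list too was chosen with earlier results of these data known, so the shares give no test of it. Il2, which Treg cells are known not to make, was too dim to be tested. The growth regulator Myc rose 1.47-fold, from 10.63 ± 0.03 in Het to 11.18 ± 0.05 in KO (SD, n = 4 and 3, adjusted p = 0.0113, limma). The costimulatory receptor Tnfrsf9 fell 1.56-fold (-0.64 ± 0.14, SE, adjusted p = 0.0251, limma), a call lost when any KO array (-0.65, -0.69 and -0.58 without replicates 1, 2 and 3) or Het replicate 3 (-0.63) was left out. The cytokine Il10 fell at least 1.15-fold (adjusted p = 0.00153, limma), with no KO array above the background and 3 of 4 Het arrays above it. Il10 was thus tested only through Het arrays, and it also passed with no filter on dim genes (adjusted p = 0.0022, limma). With all 7 arrays required to lie above the background, 9 genes of this list were tested, of which 1 fell and 1 rose. With the myeloid covariate Batf (-0.70), Prdm1 (-1.57), Il10 (-1.48), Tnfrsf9 (-0.89) and Myc (0.46) did not pass either, in a fit whose limit is given above. Nfkbid (-0.32 ± 0.11, adjusted p = 0.124) and Tnfrsf18 (-0.28 ± 0.12, adjusted p = 0.23, limma) did not pass.

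**Figure D5:**
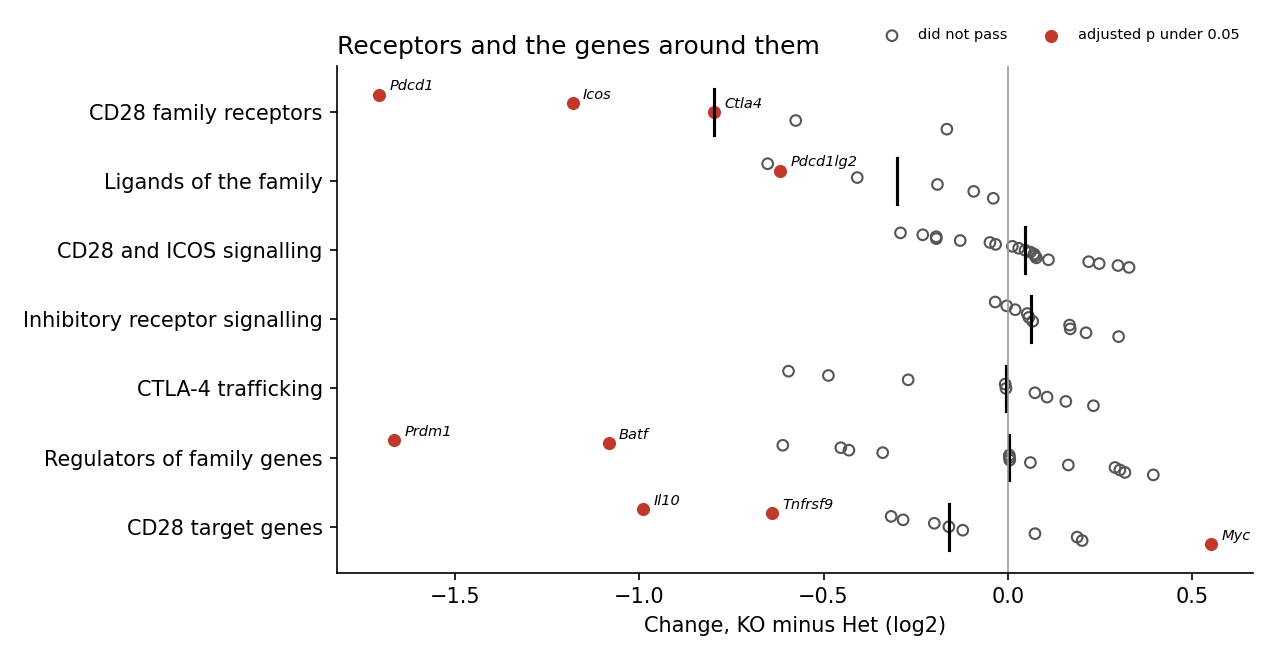
Each point is a tested gene placed by its change, KO minus Het on the log2 scale, with filled points for those at an adjusted p under 0.05 and a black bar at the median of each list. The receptors have a median of -0.80, and the signalling lists have medians of 0.05 and 0.06 with no filled point. Over all tested genes 3.24% fell and 2.55% rose, so few filled points are due in lists this short.

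The genes whose values ran most like each receptor over the 7 arrays were named by Pearson r, as a description, since the arrays fall into 2 genotypes. For Icos they were Nav2 (r = 0.996), Abcb1a (0.994) and Plod2 (0.994), and for Pdcd1 they were Prmt7 (0.993), Lrig1 (0.991) and Batf (0.990). For Ctla4 they were Crebl2 (0.988), Cep162 (0.987) and Myo1f (0.983), and for Cd28 they were Junb (0.996), Fyco1 (0.991) and Ptprs (0.990). For Btla they were Chd9 (0.983), Plod3 (0.969) and Pot1b (0.965). None of these genes was shared between receptors. Of the 15 named, 9 fell at an adjusted p under 0.05 (limma), against 3.24% of all tested genes. They include all 3 named for Icos and all 3 for Pdcd1. A high r to a receptor that differs by genotype favours such genes, so this count largely follows from how they were picked.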

How the data were processed

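The authors deposited log2 values made with RMA in Affymetrix Expression Console 1.1, per the submitters' processing notes, after amplifying and biotin-labelling RNA from sorted cells with NuGEN kits, per the labels' protocols. RMA equalises probe intensities between arrays, so a shift shared by most genes is reduced. The array design and build were not stated. The 2 deposited tables held the same values. Of 28846 probe sets 22203 carried 1 gene symbol, and the set with the highest mean stood for a gene. Background was the 95th percentile of 1117 olfactory receptor sets on each array (5.48 to 5.77), and a gene was tested if 3 or more arrays exceeded it. Limma 3.58.1 in R 4.3.3 (lmFit, eBayes) compared KO with Het over 13083 genes, with Benjamini-Hochberg adjustment, and was tested on simulated data. Separate animals are not named, so p-values reflect only sample-to-sample spread, possibly technical, and 7 arrays limit the precision. No batch is given. Alternatives were other scalings, filters, limma settings, a myeloid covariate, leaving out each array and, chosen after seeing the data, centring on Cd3e, Cd3g and Cd4. Members and lists were chosen with earlier results of these data known. Named genes were the members, ligands, every called gene of each list with the 2 smallest p among the others, and the 3 most correlated genes per receptor. Where a group was below background on all arrays, the other group's mean was set against the higher of value and background ("at least"). Of the list members, 1 was matched through a synonym and 1, Trac, had no match. Some genes of the lists are counted but not reported by name here.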

Additional observations from a re-analysis of the deposited data

Results flagged for a closer look

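Among the 44 genes named, Foxp3 in Het replicate 1 lay apart from the other Het arrays, at 11.01 against 11.22 to 11.24. Chance flags about 1 in 20 groups of 4, and 1 of 44 was found here. Without that array the Foxp3 change was 0.01 ± 0.11 (SE, adjusted p = 0.985, limma), against 0.06 ± 0.12 with it.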

How the results depend on the processing

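The falls of Icos and Pdcd1 passed under all alternatives except the myeloid covariate (-1.41 and -0.96), and Btla passed under none. Leaving out 1 array gave changes of -1.26 to -1.11 for Icos, -1.88 to -1.55 for Pdcd1, -0.94 to -0.68 for Ctla4, -0.71 to -0.39 for Cd28 and -0.32 to -0.01 for Btla. With the covariate Ctla4 was -1.11 and no longer passed, and Cd28 turned to 0.17. Cd28 passed with array weights (-0.53) and the trended, robust prior (-0.58). Over all genes, 209 to 290 rose and 240 to 455 fell with 1 array left out, 547 rose and 697 fell with array weights, 1 rose and 11 fell with the covariate, and 527 rose and 302 fell with centring on Cd3e, Cd3g and Cd4, against 333 and 424. Centring and quantile normalization gave 386 and 385, and 376 and 417. The trended, robust prior gave 497 and 627. The pair differences kept their direction when arrays were quantile normalized, weighted or left out singly. Centring arrays on the median and averaging probe sets are no check here. A within-array difference cancels the centring, and each receptor has 1 probe set. With the myeloid covariate, compared after the data were seen and with no test, Cd28 minus Btla (0.28), Ctla4 minus Pdcd1 (-0.15) and Icos minus Pdcd1 (-0.45) turned, and Cd28 minus Ctla4 (1.28), Cd28 minus Icos (1.58), Ctla4 minus Btla (-1.001) and Pdcd1 minus Btla (-0.85) moved. The cause of these shifts was not tested. No paired analysis was possible because the labels carry no replicate numbers. Dim values near the array background limit the folds of Pdcd1 in KO and of Btla in both groups.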
